A study of Homo sapiens with 12 samples.

Results

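The genes described here are 50 zinc finger genes of human chromosome 19, taken from the 27788 gene symbols with deposited counts by matching their symbols, and all 50 had a row in every count and FPKM file. Measured values chose 5 of them, ZNF83, ZNF320, ZNF468, ZNF607 and ZNF211, because they were lower in GSTO1 KO than in wild-type HCT116 cells, and the other 45 are listed as their neighbours. Because of that choice, the members' values in the HCT116 comparison are a description, with no p-value for a single member, and the question it addresses is how many of the neighbours were lower as well. RNA was sequenced in 12 libraries, 3 in each of 4 groups. The colorectal carcinoma line HCT116 and the glioblastoma line U-87 MG were used. GSTO1 encodes a glutathione transferase of the omega class.

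The group HCT116 GSTO1 KO holds HCT116 cells with CRISPR-Cas9 mutations of GSTO1, and HCT116 WT holds the cells labelled wild type. U-87 MG KO and U-87 MG WT are the same pair in the other line. Per the labels' protocols, Cas9 came from a lentivirus under blasticidin selection, a crRNA with its tracrRNA targeted exon 2 of GSTO1, and colonies picked one by one were screened for loss of GSTO1. The number of colonies behind the libraries, and whether the wild-type samples had received the control crRNA, remain unstated in the labels. An effect of GSTO1 loss and a property of a picked colony therefore cannot be told apart. No label ties replicate libraries to separate cultures, so p-values measure the spread between these libraries only, which may be technical.

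Most proteins of this family join a KRAB domain to a row of C2H2 zinc fingers. The fingers read DNA, often within transposable elements, and the KRAB domain recruits TRIM28 (KAP1), which brings SETDB1 and HP1 proteins and so builds heterochromatin marked by H3K9 methylation. The genes arose by repeated duplication in clusters on chromosome 19, and their own clusters can carry the same heterochromatin. Many are silenced by promoter methylation in tumour cells.

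On GRCh38, by the GENCODE release 44 annotation, the members lie in 3 clusters, split wherever neighbouring members were more than 1 Mb apart. Cluster 1 holds 8 members over 406 kb (chr19:37411155-37817300), from ZNF569 to ZNF573, and includes ZNF607. Cluster 2 holds 33 members over 1691 kb (chr19:51889235-53580269), from ZNF649 to ZNF331, and includes ZNF83, ZNF468 and ZNF320. Cluster 3 holds 9 members over 251 kb (chr19:57614233-57865117), from ZNF134 to ZNF587, and includes ZNF211. Translated canonical transcripts were at hand for 49 members and held a median of 13 C2H2 fingers, with 6 in ZNF793 and ZNF552 and 26 in ZNF845. A KRAB pattern was found in 47 of the 49, and not in ZNF83 or ZNF134.

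The starts of these genes are shown because copies that resemble each other closely there differed in what happened to them in HCT116. RefSeq promoter windows on GRCh38.p14, 250 bases before to 50 bases after a start, were at hand for 40 members (55 windows). The letters CCGGAAG, the core bound by ETS factors, were searched on both strands and occurred in 29 member windows (52.7%), against 37.1% of windows of other zinc finger genes of chromosome 19 and 10.3% of all 35116 windows. In 12 member windows (21.8%) they began at base 5 of the gene, an arrangement found in 0.125% of all windows. Printed below, 5′ to 3′ on the gene's own strand, are 30 bases before and 25 bases after the start of 9 members of cluster 2, with CCGGAAG in capitals. The 9 are examples and not all members of cluster 2 with a window. ZNF525, also lower in HCT116 GSTO1 KO cells, is not printed, and its motif began at base 15. Where a printed gene has 2 windows, the one with the motif among the printed bases is shown. The first 5 genes kept 1.23% to 23.7% of the wild-type level in HCT116 GSTO1 KO cells, and the last 4 were within 1.5-fold of it.
ZNF808 (chr19:52527638-52527692, plus strand): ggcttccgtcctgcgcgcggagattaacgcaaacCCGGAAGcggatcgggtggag
ZNF83 (chr19:52638331-52638385, minus strand): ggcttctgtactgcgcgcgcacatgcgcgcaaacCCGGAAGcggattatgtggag
ZNF468 (chr19:52857595-52857649, minus strand): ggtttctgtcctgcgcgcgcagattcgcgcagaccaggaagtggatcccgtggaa
ZNF320 (chr19:52897670-52897724, minus strand): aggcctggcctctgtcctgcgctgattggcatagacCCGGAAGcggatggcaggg
ZNF816 (chr19:52962857-52962911, minus strand): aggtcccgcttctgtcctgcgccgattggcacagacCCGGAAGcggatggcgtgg
ZNF611 (chr19:52735020-52735074, minus strand): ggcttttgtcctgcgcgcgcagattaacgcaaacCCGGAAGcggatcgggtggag
ZNF160 (chr19:53103398-53103452, minus strand): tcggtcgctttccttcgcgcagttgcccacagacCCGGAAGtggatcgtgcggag
ZNF845 (chr19:53333719-53333773, plus strand): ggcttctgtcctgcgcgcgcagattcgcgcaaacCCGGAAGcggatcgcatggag
ZNF765 (chr19:53395119-53395173, plus strand): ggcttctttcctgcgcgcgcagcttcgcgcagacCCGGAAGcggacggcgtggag

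The windows of ZNF808 and ZNF611 were identical at 52 of 55 positions, those of ZNF808 and ZNF845 at 49, and those of ZNF320 and ZNF816 at 47. ZNF320 and ZNF816 were both lower, so that pair shows no difference in outcome. Other pairs were less alike, with 33 for ZNF808 and ZNF160 and 15 for ZNF808 and ZNF320. The window of ZNF468 was not compared. In ZNF320 and ZNF816 the motif began at base 7, and in the other 6 of these windows that held it at base 5. ZNF468 had no match in its window.

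Libraries held 17814142 to 28097179 counts assigned to genes. Replicates were not copies of each other (chi-square per degree of freedom 1.48 to 9.31 between libraries of one group), and U-87 MG WT replicate 3 stood apart most (8.21 and 9.31). GSTO1 was at 12.5 ± 0.526 FPKM in HCT116 GSTO1 KO and 62.6 ± 1.98 FPKM in HCT116 WT, and at 22.9 ± 0.941 FPKM in U-87 MG KO and 142.1 ± 16.0 FPKM in U-87 MG WT (SD, n = 3 each). Of 10 colorectal epithelial markers, 6 exceeded 0.5 FPKM in HCT116 and 2 in U-87 MG. Of 10 glial or mesenchymal markers, 6 exceeded 0.5 FPKM in U-87 MG and 4 in HCT116, and the glial genes GFAP, S100B, OLIG2 and SOX2 did so in neither. Some markers moved with the knockout. CDH1 (log2 fold change 0.86), CD44 (0.90) and SPARC (1.04) were called higher in HCT116 GSTO1 KO, and KRT8 (-1.12), TNC (-0.78) and CHI3L1 (-1.05) lower in U-87 MG KO, and their part in the results was not tested. All 4 leukocyte markers were at or below 0.5 FPKM in every group.

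Levels are given as FPKM, the authors' fragments scaled by gene length and library depth, where genes are set beside each other. A mean above 0.5 FPKM was reached by 20 of the 50 members in HCT116 GSTO1 KO and 27 in HCT116 WT, and by 12 in U-87 MG KO and 11 in U-87 MG WT. At most 3 counts over the 3 libraries were found for 21 members in HCT116 GSTO1 KO and 20 in HCT116 WT, and for 37 in U-87 MG KO and 36 in U-87 MG WT. Cluster 1 was nearly silent, with ZNF607 and ZNF573 in HCT116 WT as its sources of counts above that number. In 16 members the sum stayed at 3 or fewer in all 4 groups. These were 6 of cluster 1, 8 of cluster 2, including the 4 consecutive genes ZNF415, ZNF347, ZNF665 and ZNF677 and the imprinted gene ZNF331, and ZNF154 and ZNF671 of cluster 3. The highest member in HCT116 was ZNF766 (9.56 ± 0.337 FPKM in KO and 8.37 ± 0.166 FPKM in WT). The highest member in U-87 MG was ZNF134 (5.40 ± 0.0975 FPKM in KO and 4.59 ± 0.260 FPKM in WT). Intervals and floors on low counts cover counting error only.

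**Figure D1:**
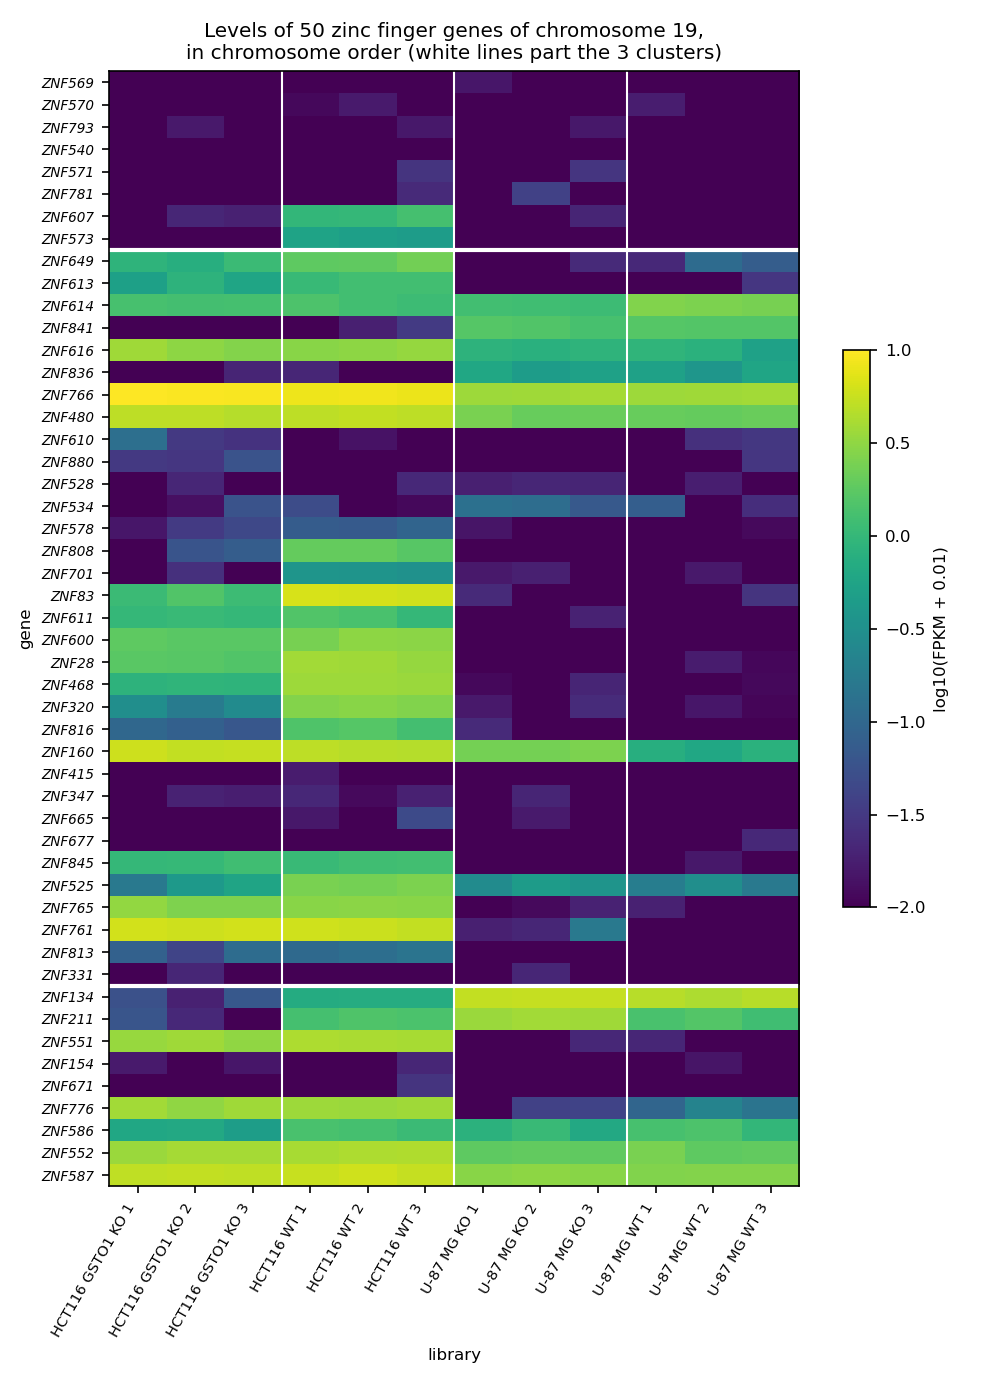
Levels of the 50 members, in chromosome order down the page and by library across, as log10(FPKM + 0.01), with white lines between the 3 clusters. Cluster 1 is dark except ZNF607 and ZNF573 in the 3 HCT116 WT libraries, and 36 members have at most 3 counts in U-87 MG WT.

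In HCT116, 13 of the 29 members with enough counts to be tested were called lower in KO cells and 0 were called higher. A call combines an adjusted p under 0.05 from edgeR's quasi-likelihood test with a change of more than 1.5-fold and a mean level, over the 6 libraries compared, of more than 0.5 FPKM. Over all 14068 genes tested, 4.07% were called lower and 7.82% higher. Since members were chosen on this contrast, and a member that passed the count filter through the WT libraries alone had to be lower, nothing is read from these shares. In RNA from whole cultures, fewer cells with a transcript and less of it per cell cannot be told apart. By adjusted p alone 16 members were lower (28.1% of all genes) and 2 higher (29.2%), at an unadjusted p under 0.05 these were 18 (30.2%) and 2 (31.2%), and DESeq2 called 13 lower and 0 higher. Of the 24 neighbours tested, 8 were called lower. The median log2 fold change (KO over WT, as throughout for this line) was -0.73 over the 29 tested members and 0.01 over all genes.

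The 5 members chosen for their lower level differed widely in how much was left. ZNF607, a KRAB zinc finger gene with 18 fingers, had 0, 0 and 0 counts in the KO libraries against 117, 132 and 140 counts in the WT libraries, at least 110-fold lower against a floor of 3 counts over the group. ZNF211 had 4, 1 and 0 counts in KO against 148, 186 and 137 counts in WT (log2 fold change -6.23, SE 0.34). Both were close to or at zero in every KO library and above 100 counts in every WT library.

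ZNF320 had 37, 24 and 47 counts in KO against 466, 554 and 415 counts in WT (log2 fold change -3.49, SE 0.13). ZNF83, whose protein has fingers but no KRAB pattern, had 78, 111 and 105 counts in KO against 614, 602 and 474 counts in WT (log2 fold change -2.29, SE 0.11). ZNF468 had 64, 77 and 92 counts in KO against 396, 425 and 337 counts in WT (log2 fold change -2.08, SE 0.10). In these 3 the KO libraries kept 8.87%, 20.5% and 23.7% of the WT level, in that order, and no KO library reached any WT library.

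Among the neighbours, 6 were at less than a log2 fold change of -2, as were 11 of all 29 tested members and 0.697% of all genes tested. ZNF525, with 8 fingers, had 3, 3 and 3 counts in KO against 318, 338 and 285 counts in WT (log2 fold change -6.42, SE 0.21). On the FPKM scale ZNF525 was at 0.374 ± 0.203 in KO and 2.48 ± 0.123 in WT, a log2 ratio of -2.73, so counts and FPKM gave different sizes. ZNF808, a repressor of transposable elements needed for pancreas development, had 0, 3 and 2 counts in KO against 179, 190 and 140 counts in WT (log2 fold change -6.34, SE 0.31). These counts put ZNF808 beside ZNF607 and ZNF211, with almost no reads left in KO.

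ZNF816 had 3, 4 and 4 counts in KO against 96, 116 and 68 counts in WT (log2 fold change -4.39, SE 0.30). The other 3 of the 6 were below the mean of 0.5 FPKM and so were not called. ZNF573 in cluster 1, next to ZNF607, had 0 counts in all 3 KO libraries against 38, 42 and 29 counts in WT, at least 30.9-fold lower. ZNF701, next to ZNF808, had 0, 2 and 0 counts in KO against 49, 54 and 47 counts in WT, a ratio of 63.9 with a 95% counting interval of 17.4 to 532.1. ZNF134, next to ZNF211, had 5, 1 and 8 counts in KO against 95, 105 and 88 counts in WT (log2 fold change -4.10, SE 0.30). All 3 had KO libraries entirely below the WT libraries. A rule chosen after these values were seen, a mean above 0.5 FPKM in the higher group, added ZNF134 to the calls but neither ZNF573 nor ZNF701. Under it 14 members were called lower (4.34% of all genes) and 0 higher (8.52%).

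The remaining 5 called neighbours kept 46.8% to 63.1% of their WT level. ZNF28 had 171, 163 and 185 counts in KO against 456, 494 and 360 counts in WT (log2 fold change -1.09, SE 0.10). ZNF600 had 142, 148 and 179 counts in KO against 262, 343 and 269 counts in WT (log2 fold change -0.66, SE 0.10). ZNF649 (-1.06, SE 0.14), ZNF586 (-1.07, SE 0.19) and ZNF613 (-0.73, SE 0.21) were the others, with no overlap between KO and WT libraries in any of the 5. On log2(FPKM + 1), ZNF586 (-0.53), ZNF613 (-0.41) and ZNF600 (-0.48) were no longer past the 1.5-fold. In all, 17 of the 29 tested members had every KO library below every WT library (30.4% of all genes tested), and 2 had every KO library above (31.2%).

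Within cluster 2, the 9 members from ZNF808 to ZNF816 (chr19:52527652-52962911, 435 kb) were ZNF808, ZNF701, ZNF83, ZNF611, ZNF600, ZNF28, ZNF468, ZNF320 and ZNF816. All 9 were tested and 7 were called lower (4.07% of all genes tested), while ZNF701 was lower by its counts and fell short in FPKM. Of these 7, ZNF83, ZNF468 and ZNF320 had been chosen for being lower in this contrast, so the count supports nothing further. ZNF611 was the exception, at 93, 112 and 140 counts in KO against 205, 188 and 113 counts in WT (log2 fold change -0.32, SE 0.15), with overlapping libraries. Before this stretch lay 5 members that were not tested, ZNF610 to ZNF578. After it came ZNF160, with 564, 531 and 672 counts in KO against 633, 596 and 500 counts in WT and a log2 fold change of 0.27 (SE 0.07) after scaling for depth. The stretch was picked out after its values were seen.

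Of the tested members, 13 stayed within 1.5-fold of the wild-type level, and they stood among the members that were lower. ZNF845 (-0.08, SE 0.11) lies directly before ZNF525, and ZNF765 (-0.19, SE 0.10) directly after it. ZNF551 (-0.20, SE 0.09) is the member next to ZNF211. ZNF766 was at 9.56 FPKM in KO and 8.37 FPKM in WT (0.24, SE 0.06). ZNF766 and ZNF160 were the 2 members whose KO libraries all lay above the WT libraries. ZNF614 (0.08, SE 0.12), ZNF616 (0.09, SE 0.10), ZNF480 (-0.01, SE 0.07), ZNF776 (-0.03, SE 0.08), ZNF587 (-0.05, SE 0.06) and ZNF552 (-0.15, SE 0.10) were nearer to 0. For ZNF616 the sign turned without KO replicate 1 (-0.04).

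ZNF761 had 10, 19 and 33 counts in KO against 24, 17 and 13 counts in WT (log2 fold change 0.42, SE 0.34), with overlapping libraries. Its FPKM, 6.14 ± 0.198 in KO and 5.69 ± 0.359 in WT, was among the highest of the members although its counts were few, so the 2 kinds of file disagree on its level. Among the 21 members not tested in HCT116, ZNF578 had 8 summed counts in KO and 27 in WT, ZNF610 had 7 in KO and 1 in WT, and ZNF880 had 5 in KO and 0 in WT.

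**Figure D2:**
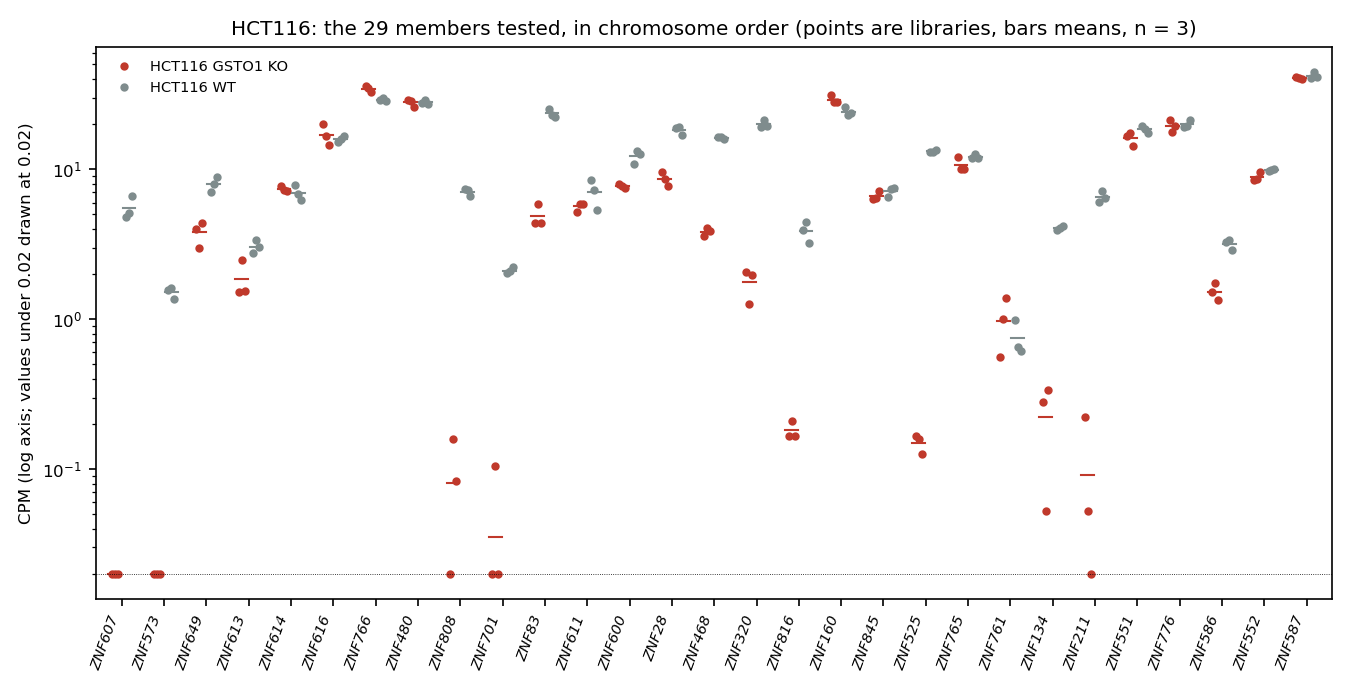
Counts scaled by library size with TMM factors (CPM, log axis) of the 29 tested members in HCT116, with 1 point per library, bars for means (n = 3) and GSTO1 KO left of WT. ZNF607, ZNF573, ZNF808, ZNF701, ZNF816, ZNF525, ZNF134 and ZNF211 drop below 1 CPM in every KO library, while ZNF766, ZNF480, ZNF776 and ZNF587 lie near their WT level.

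Sequence features were set side by side for the members below a log2 fold change of -2 and those within 1.5-fold. CCGGAAG was in a promoter window of 7 of the 10 lower members with a window and of 9 of the 11 members within 1.5-fold. It began at base 5 in 2 of those 10 lower members and in 7 of those 11. CpG dinucleotides were counted in the window of each gene that had most of them. Their median was 23 (18 to 30) for the lower members and 25 (12 to 30) for those within 1.5-fold. Over single windows the median was 21 for all members with a window and 14 for all windows. The median number of fingers was 11 (7 to 23) and 13 (6 to 26). Median WT levels were 1.45 FPKM for the lower members and 4.15 FPKM for those within 1.5-fold. The WT level also enters the fold change that formed these groups, so nothing is read from this difference. No test was made of these features, because the HCT116 values formed the groups.

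Copies within the family share sequence, which bears on how reads were counted. Stretches of 50 bases, the read length, were matched on either strand, and genes that overlap a member on the chromosome were kept in. More than 5% of exon bases overlapped another counted gene on the same strand in 3 members and on the opposite strand in 2. In 27 of the 50 members more than 5% of stretches also occur in another gene, whether by duplication or by overlap. Among the 13 called lower these were all but ZNF83, ZNF320, ZNF211 and ZNF613, and shares reached 22.4% for ZNF607 and 16.8% for ZNF808, whose closest partner was ZNF611. ZNF587, which was close to its WT level, shared most (39.5%, mainly with ZNF814). ZNF814 lies on the opposite strand and overlaps 33.2% of the exon bases of ZNF587, so this share does not come from duplicated copies alone. How reads that match several genes were counted is unstated in the labels and processing notes, and its part in the result was not tested.

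The same comparison in genes outside the 50 gives the setting. Among other zinc finger genes of chromosome 19, 17 of 121 tested (14.0%) were below a log2 fold change of -2, and their median was -0.02. Among zinc finger genes of other chromosomes this held for 3 of 240 (1.25%), and among genes of other kinds on chromosome 19 for 1 of 821 (0.122%). With the 11 members, zinc finger genes of chromosome 19 made up 28 of the 98 genes below -2 (28.6%). Of those 28, 5 were chosen for being lower in this contrast, and a gene that passed the count filter through the WT libraries alone had to be lower, so the share supports nothing further. Between the members, the zinc finger gene ZNF888 had 7, 7 and 1 counts in KO against 187, 207 and 174 counts in WT (log2 fold change -4.98, SE 0.27). ZFP30 in cluster 1 had 0 counts in KO against 84, 88 and 73 counts in WT, at least 69.5-fold lower. ZNF888 was called lower, but ZFP30, at a mean of 0.233 FPKM, was not. Both were singled out after their values were seen. The other 3 tested zinc finger genes between members, ZNF577 (-0.49, SE 0.18), ZNF814 (-1.01, SE 0.25) and ZNF587B (-0.16, SE 0.09), were also not called. So 1 of these 5 was called lower (4.07% of all genes), and by adjusted p alone 4 were lower (28.1%). ZNF814 fell short in FPKM (mean 0.400). The 3 tested genes of other kinds between members were not called either, with PPP2R1A at -0.08, TPM3P9 at -0.13 and FKBP1AP1 at -0.24.

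**Figure D3:**
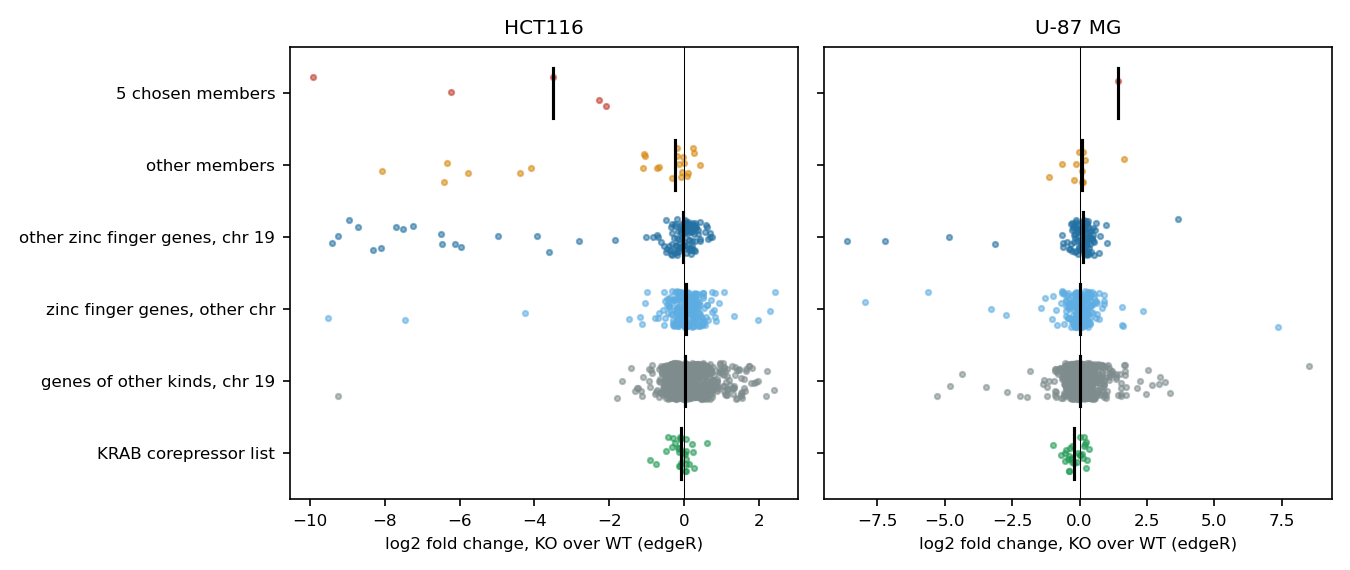
Log2 fold changes, KO over WT, of single genes (points) with the median of each set (black bars), for HCT116 on the left and U-87 MG on the right. Zinc finger genes of chromosome 19 make up 28 of the 98 genes below -2 in HCT116, the 5 chosen members included, and 4 of 156 in U-87 MG. Fitted values of genes without counts in a group depend on the fit and are not bounds.

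In U-87 MG, 12 of the 50 members had enough counts to be tested, and they moved in both directions. ZNF211 and ZNF160 rose, and ZNF614 and ZNF586 fell, so 2 members were called higher and 2 lower, where 8.06% of all 13741 genes tested were called higher and 8.15% lower. The median log2 fold change was 0.09 over the 12 members and 0.01 over all genes. None of the 12 was below -2, where 1.14% of all genes were. With the level asked of the higher group alone the counts were again 2 higher (8.70% of all genes) and 2 lower (8.49%), and by adjusted p alone they were 3 higher (29.0%) and 2 lower (30.2%). This contrast shares no library with the HCT116 comparison and was not used to choose the members.

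ZNF211, nearly absent from the HCT116 KO libraries, had 429, 342 and 343 counts in U-87 MG KO against 130, 182 and 110 counts in U-87 MG WT. Every KO library was above every WT library (log2 fold change 1.43, SE 0.11, edgeR adjusted p = 1.01e-10). ZNF160, a large KRAB protein with 20 fingers, had 307, 228 and 257 counts in KO against 83, 81 and 92 counts in WT. It too was higher in 3 of 3 KO libraries (log2 fold change 1.64, SE 0.13, edgeR adjusted p = 3.89e-10). ZNF211 has 0.916% and ZNF160 1.46% of its 50-base stretches in another gene.

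ZNF614 had 182, 132 and 132 counts in KO against 331, 381 and 283 counts in WT. All KO libraries were lower (log2 fold change -1.14, SE 0.10, edgeR adjusted p = 2.14e-09). ZNF586 had 51, 54 and 34 counts in KO against 67, 101 and 54 counts in WT, with overlapping libraries after scaling (log2 fold change -0.64, SE 0.22, edgeR adjusted p = 0.0147). The call of ZNF586 was lost without KO replicate 1 (-0.58), KO replicate 3 (-0.50) or WT replicate 2 (-0.48).

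ZNF134 was at 30.1 ± 0.351 CPM in KO and 26.1 ± 1.35 CPM in WT (SD, n = 3 each), higher in 3 of 3 libraries (log2 fold change 0.21, SE 0.07, edgeR adjusted p = 0.0118) but below the 1.5-fold that a call requires. The other 7 tested members, ZNF841, ZNF616, ZNF836, ZNF766, ZNF480, ZNF552 and ZNF587, had log2 fold changes between -0.21 (ZNF552) and 0.15 (ZNF616) and did not pass the test. Of the 12, 3 had every KO library above every WT library (31.8% of all genes tested) and 1 had every KO library below (32.2%).

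Of the 5 members chosen for their lower level in HCT116, ZNF211 was the one that could be tested in U-87 MG. ZNF83 had 1 summed count in KO and 0 in WT, ZNF468 1 and 0, ZNF320 1 and 1, and ZNF607 1 and 0. A difference in these 4 was not detectable at this depth. ZNF776 had 4 summed counts in KO and 37 in WT, and ZNF649 had 1 in KO and 20 in WT, a ratio of 19.7 with a 95% counting interval of 3.16 to 818.2. Neither was tested. ZNF615, a zinc finger gene of cluster 2 that is not among the 50, had 0 counts in KO against 44, 60 and 46 counts in WT, at least 49.4-fold lower. It was named after its values were seen.

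**Figure D4:**
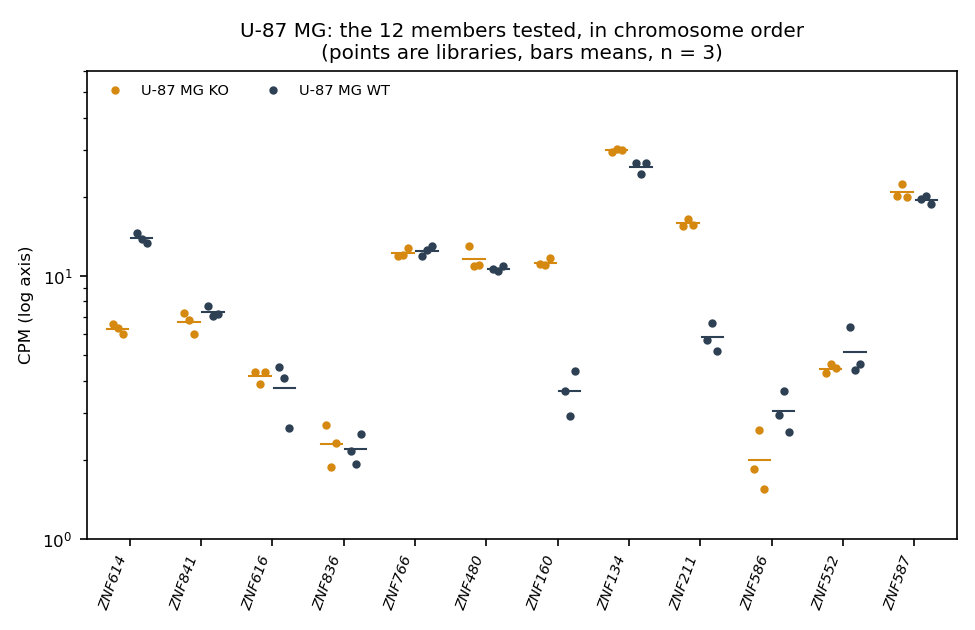
CPM (log axis) of the 12 tested members in U-87 MG, with 1 point per library, bars for means (n = 3) and KO left of WT. ZNF160 and ZNF211 lie higher in KO, ZNF614 lies lower in KO, and ZNF586 overlaps.

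Between the wild-type cells of the 2 lines, more members were expressed in HCT116. A mean above 0.5 FPKM was reached in both lines by 10 members, in HCT116 WT alone by 17, in U-87 MG WT alone by 1 (ZNF841) and in neither by 22. The 25 members from ZNF610 to ZNF331 (chr19:52336243-53580269, 1244 kb) were nearly without counts in U-87 MG, with 1 exception. All but ZNF160 had at most 3 counts in U-87 MG KO and in U-87 MG WT, while in HCT116 WT 10 of the 25 did. HCT116 was sequenced in single reads and U-87 MG in read pairs, so line and read layout cannot be told apart.

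Of the 26 neighbours tested between the lines, 19 were called higher in HCT116 WT and 3 lower, where 26.5% of all 15613 genes tested were called higher and 27.9% lower. A neighbour that entered the test through HCT116 alone had to differ, so this count supports nothing further. The WT libraries of HCT116 also enter the KO comparison, and no p-value is given for the 5 chosen members. ZNF83 had 1690 summed counts in HCT116 WT and 0 in U-87 MG WT (at least 499-fold higher), and ZNF468 had 1158 and 0 (at least 342-fold higher). ZNF211 was at 1.40 ± 0.0855 FPKM in HCT116 WT and 1.38 ± 0.184 FPKM in U-87 MG WT.

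Among neighbours, ZNF600 had 874 summed counts in HCT116 WT and 0 in U-87 MG WT (at least 258-fold higher). ZNF808 was at least 150-fold and ZNF611 at least 149-fold higher. ZNF551 had 1325 summed counts in HCT116 WT and 1 in U-87 MG WT, a ratio of 1173 with a 95% counting interval of 210.2 to 46371, and ZNF28 had 1310 and 1. Bounds and ratios of this kind give no order among these genes. In the other direction, ZNF841, whose protein has 20 fingers, had 0, 1 and 2 counts in HCT116 WT against 175, 195 and 152 counts in U-87 MG WT, 197-fold lower with a 95% counting interval of 66.9 to 956.1. ZNF836, close to it on the same strand, had 1 summed count in HCT116 WT and 155 in U-87 MG WT and lay below 0.5 FPKM in both. Between these 2 genes lies ZNF616, which was at 3.11 ± 0.195 FPKM in HCT116 WT and 0.741 ± 0.206 FPKM in U-87 MG WT.

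ZNF134 was at 0.698 ± 0.0138 FPKM in HCT116 WT and 4.59 ± 0.260 FPKM in U-87 MG WT (log2 ratio -2.86, SE 0.10, edgeR adjusted p = 1.67e-22). ZNF614 was at 1.26 ± 0.161 FPKM in HCT116 WT and 2.55 ± 0.113 FPKM in U-87 MG WT (-1.17, SE 0.10, edgeR adjusted p = 2.66e-12). The smallest called differences were those of ZNF552 (0.78, SE 0.12, edgeR adjusted p = 9.36e-07) and ZNF587 (0.94, SE 0.07, edgeR adjusted p = 3.84e-14), both higher in HCT116 WT in 3 of 3 libraries. ZNF586 had a log2 ratio of -0.12 (SE 0.18), with overlapping libraries.

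**Figure D5:**
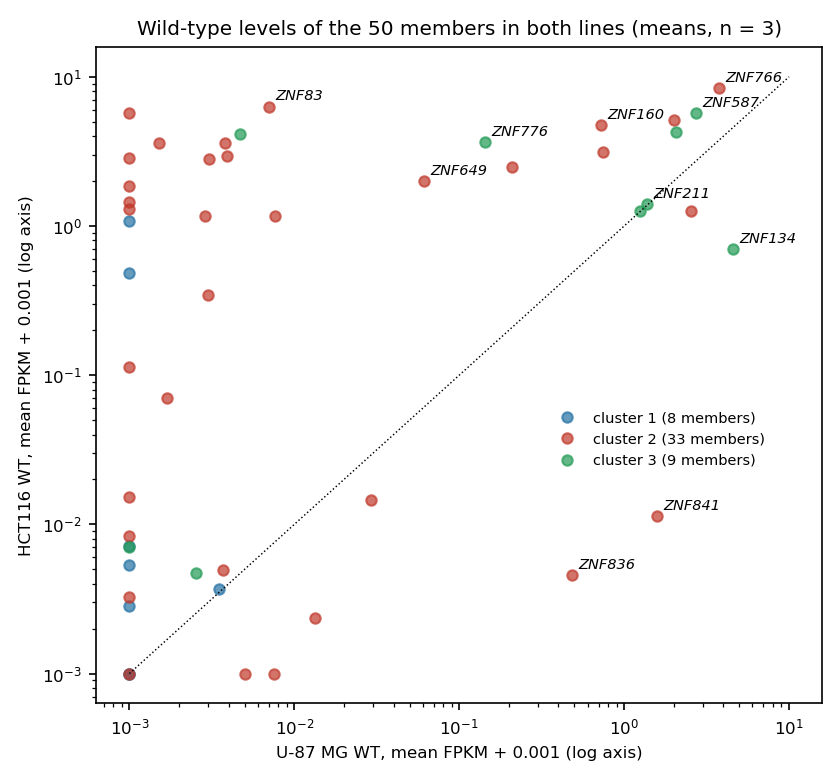
Mean level of each of the 50 members in HCT116 WT (vertical) against U-87 MG WT (horizontal), as FPKM + 0.001 on log axes, n = 3 libraries each, coloured by cluster, with a dotted line of equal level. ZNF841, ZNF836, ZNF134 and ZNF614 lie below the line, and 17 members exceed 0.5 FPKM in HCT116 WT alone.

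Few genes of a list of 30 KRAB corepressors and linked heterochromatin factors, with TRIM28 and SETDB1 among them, were called in either line. The list also holds DNA methyltransferase genes, and its members are called corepressor genes below for short. In HCT116 all 30 were tested, and 2 were called lower and 1 higher, with a median log2 fold change of -0.09. These counts are near the background of 4.07% lower and 7.82% higher over all genes. By adjusted p alone, 14 were lower (28.1% of all genes) and 5 higher (29.2%). At an unadjusted p under 0.05 these were 15 (30.2%) and 5 (31.2%). DNMT1, the maintenance DNA methyltransferase, fell to 237.9 ± 8.53 CPM in KO, against 446.7 ± 3.62 CPM in WT (log2 fold change -0.91, SE 0.04, edgeR adjusted p = 1.92e-13). DNMT3B, a methyltransferase that sets new marks, was at 37.4 ± 0.525 CPM in KO and 63.1 ± 1.77 CPM in WT (-0.76, SE 0.06, edgeR adjusted p = 9.16e-10). CBX5, which encodes HP1 alpha, was at 390.8 ± 15.7 CPM in KO and 257.3 ± 3.99 CPM in WT (0.60, SE 0.04, edgeR adjusted p = 1.53e-10), and its call was lost without KO replicate 1 (SD, n = 3 each). DNMT3A, the third DNA methyltransferase gene of the list, was not called (edgeR adjusted p = 0.433, log2 fold change -0.09, SE 0.09).

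In U-87 MG, 29 genes of the list were tested, 2 were called lower and 0 higher with edgeR, against 8.15% and 8.06% of all genes, with a median of -0.22. At an unadjusted p under 0.05, 15 were lower (32.1% of all genes) and 9 higher (31.0%), and DESeq2 also called 0 higher. MORC2, an ATPase that acts in silencing by the HUSH complex, was at 34.7 ± 1.28 CPM in KO and 68.9 ± 3.41 CPM in WT (-0.99, SE 0.06, edgeR adjusted p = 2.52e-12). UHRF1, which guides DNMT1 to newly copied DNA, was at 67.2 ± 0.189 CPM in KO and 108.7 ± 2.79 CPM in WT (-0.69, SE 0.05, edgeR adjusted p = 2.10e-11). DNMT1 (-0.51, SE 0.04, edgeR adjusted p = 1.75e-10) and DNMT3B (-0.56, SE 0.10, edgeR adjusted p = 7.59e-05) were lower in U-87 MG KO as well, but by less than the 1.5-fold of a call. TRIM28 was called in neither line, at -0.23 (SE 0.04) in HCT116 and -0.38 (SE 0.04) in U-87 MG. Whether any of these levels bears on the zinc finger genes was not tested.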

How the data were processed

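RNA from cells of 4 groups was sequenced in 12 stranded mRNA libraries with 50 bp reads, per the labels' protocols. Per the submitters' processing notes, STAR 2.5.2, featureCounts 1.6.1, Cufflinks 2.2.1 and GRCh38 were used. The deposited counts are the authors' whole reads per gene symbol, and the deposited FPKM values are the authors' fragments scaled by length and depth. For strand setting and reads with several matches, these sources name none.

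The main test was edgeR 4.0.16 (R 4.3.3, TMM, filterByExpr, robust glmQLFit) on the counts, with Benjamini-Hochberg adjustment over all genes tested. The lines' wild-type groups were compared in 1 fit of all 12 libraries, with a mean FPKM above 0.5 needed in the higher group. Scripts were tested on simulated counts with 200 changed genes. The members and the gene lists were chosen with earlier results of these data known. Named with values were the 5 chosen members, the 8 lowest and 5 highest others in HCT116, all called members in U-87 MG, the 5 highest and 5 lowest between lines and the called corepressor genes. Other members are named so that all 50 are accounted for.

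Positions came from GENCODE release 44 (24406 symbols matched by current and 1027 by older symbol), and promoter sequences from RefSeq (GRCh38.p14). Alternatives were RLE factors, DESeq2 1.42.0, no count filter, limma 3.58.1 on log2(FPKM + 1) and log2(FPKM + 0.1), single libraries left out, a replicate block, adjusted p alone, and members with few shared stretches. Deviations of same-numbered HCT116 libraries correlated at 0.219, 0.188 and 0.484, all above 0.1. Differently numbered ones reached 0.229 (KO 1 with WT 2) and 0.167 (KO 2 with WT 1). These values therefore cannot show that the numbers pair the libraries. The main test held no pairing, and the replicate block was fitted as an alternative.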

Additional observations from a re-analysis of the deposited data

Results flagged for a closer look

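ZNF211 moved in opposite directions in the 2 lines. Its log2 fold change was 1.43 in U-87 MG (KO over WT), with all 3 KO libraries above all 3 WT libraries. In HCT116, where it was chosen for its lower level, it was -6.23, with all 3 KO libraries below. ZNF134, the member next to it, had the same signs, at -4.10 in HCT116 and 0.21 in U-87 MG. The U-87 MG change of ZNF134 was below the 1.5-fold of a call. Its KO libraries there were again all above, which held for 31.8% of all genes tested in U-87 MG. In both cases the difference between the lines itself was not tested.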

How the results depend on the processing

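With RLE factors, DESeq2 or a replicate block, the counts of called members kept within 1.5 times of 13 lower in HCT116 and of 2 higher and 2 lower in U-87 MG. With the replicate block they were 13 and 0 in HCT116 (lower and higher) and 2 and 2 in U-87 MG, and no call of a named member changed. Same-numbered U-87 MG libraries correlated at only 0.061, 0.018 and 0.012. In both lines the block joins samples that share a number, and no block was fitted between the lines. The median of tested members in HCT116 (-0.73, the 5 chosen members included) was -0.50 with no count filter, which adds members with few reads. This median was -0.41 on log2(FPKM + 1), and lay between -0.92 and -0.64 with 1 library left out. Between the lines the median of 7.03 was 5.08 with genes without counts at their bound, 6.97 with DESeq2, 1.78 with no count filter, 1.25 on log2(FPKM + 1), 3.58 on log2(FPKM + 0.1) and 6.72 to 7.15 with 1 library left out. Members called lower in U-87 MG were 1 on both FPKM scales and 1 to 2 with 1 library left out, ZNF586 being the one lost (-0.28 on log2(FPKM + 1), -0.51 on log2(FPKM + 0.1)). Corepressor genes called higher in HCT116 were 0 on both FPKM scales and 0 to 1 with 1 library left out. By adjusted p alone, 2 members were higher in HCT116 (29.2% of all genes). Corepressor genes by that rule numbered 5 higher (29.2%) and 14 lower (28.1%) in HCT116. In U-87 MG they numbered 8 higher (29.0%) and 15 lower (30.2%). Among members with at most 5% of stretches shared, 4 of 11 tested were called lower in HCT116 (4.07% of all genes) and 8 of 11 higher between the lines (26.5%). In U-87 MG 1 of 7 was called lower (8.15%), while ZNF211 and ZNF160, also among these 7, were called higher (8.06%). ZNF586, ZNF613 and ZNF600 lost their HCT116 call on log2(FPKM + 1) (-0.53, -0.41 and -0.48), where the pseudocount shrinks low genes. ZNF607 lost its call without any single WT library (-9.79 to -9.97), because the mean FPKM over the remaining 5 libraries then fell under 0.5. Members with at most 3 counts in both groups of a comparison give no fold at this depth.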
